A study of Mus musculus with 13 samples.

Results

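The 10 genes Deptor, Txnip, Pik3ip1, Insr, Irs1, Irs2, Foxo1, Foxo3, Sesn1 and Mtor belong to the pathway that carries insulin signals to growth control and to the brakes on it. They were picked by name from the 21950 genes of a bulk table and the 28693 genes of 4 single-cell count matrices of mouse skin. Deptor, Txnip and Pik3ip1 were picked for their change in pregnancy, so their pregnancy values, and their values in the contrast that shares the pregnant libraries, are given as a description with no test. The other 7 members were chosen by their role. They and the lists of pathway genes below were chosen with earlier results of these data known, so their p-values are not those of a blind choice.

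Bulk RNA came from interfollicular basal keratinocytes of C57BL/6 abdominal skin, sorted as CD49f positive and CD34 negative cells, in 3 groups of 3 libraries. The groups were wild type (WT) at gestation day 16 (dpc16), WT that were not pregnant (NP), and K14creERT2;Tbx3flox/flox mice at dpc16, called Tbx3 cKO here. K14creERT2 is a Cre recombinase that tamoxifen switches on, under the promoter of keratin 14, which is active in basal keratinocytes. The single-cell libraries came from whole abdominal epidermis of C57BL/6 mice of the genotype Tbx3creERT2; R26H2B EGFP, so they carried other alleles than the bulk mice. There was 1 single-cell library for each of NP, dpc16, day 6 post partum (dpp6) and day 40 post partum (dpp40). Ages, the tamoxifen status of the WT bulk mice and the part of Tbx3 that is removed are not stated in these sources.

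Insulin and insulin-like growth factors bind receptor kinases that phosphorylate the IRS adaptors, which recruit PI3K and lead to activation of AKT. AKT keeps FOXO transcription factors out of the nucleus and lifts inhibition of the mTOR kinase, which promotes protein synthesis and growth. When the pathway is quiet, FOXO factors enter the nucleus and can raise transcription of genes such as Irs2, Insr and Sesn1, which is a known feedback of the pathway. In skin this network is known for its part in keratinocyte growth and in the balance of proliferation and differentiation.

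Promoter sequence is shown for the 4 members whose windows held a motif searched. These 4 lay higher in every Tbx3 cKO library than in every WT dpc16 library. So did Pik3ip1, Foxo1 and Foxo3, whose windows held no match, so this does not set the 4 apart. Sequences are from RefSeq on the build GRCm38.p6, read 5′ to 3′ on the gene's strand, and 8 of the 10 members had a window of 250 bases before to 50 bases after a start, with a pair of windows for Sesn1. The motifs, searched on both strands, were the FOXO motif GTAAACA, the insulin response element TGTTTTG, the E-box CACGTG, and a pair of CACGNG with 5 bases between. The last one describes the carbohydrate response element known from the Txnip promoter and was added after that sequence had been seen. Capitals mark the matches.
Txnip, chr3:96557707-96557956, plus strand: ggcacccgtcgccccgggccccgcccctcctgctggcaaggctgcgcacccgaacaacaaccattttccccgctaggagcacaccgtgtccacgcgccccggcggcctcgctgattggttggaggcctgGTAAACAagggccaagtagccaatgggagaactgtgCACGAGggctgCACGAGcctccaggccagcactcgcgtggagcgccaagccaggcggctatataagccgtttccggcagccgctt
Irs1, chr1:82291531-82291568, minus strand: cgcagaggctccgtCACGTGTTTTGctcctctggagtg
Irs2, chr8:11008950-11008987, minus strand: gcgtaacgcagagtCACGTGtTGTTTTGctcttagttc
Sesn1, chr10:41810586-41810612, plus strand: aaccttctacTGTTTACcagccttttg

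The Txnip window held the FOXO motif from 121 bases before the start and the paired CACGNG from 85 bases before it. Of 32851 promoter windows, 3.65% held the FOXO motif and 16 windows (0.0487%) held the paired CACGNG. Sesn1 held the FOXO motif on the opposite strand from position 23 after the start of 1 of its 2 windows. The Irs1 and Irs2 windows each held the E-box, present in 7.15% of windows, with the insulin response element, present in 6.28%, directly beside it. In Irs1 the E-box starts 115 bases before the start and overlaps TGTTTTG, and in Irs2 it starts 44 bases before the start with 1 base between the motifs. Irs1 held another TGTTTTG from 32 bases before the start. No match was found in the windows of Pik3ip1, Foxo1, Foxo3 or Mtor. A match describes the letters in the window and no binding was measured.

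The bulk libraries summed to between 785636 and 847693 FPKM (fragment counts scaled by transcript length and library size), and their absolute depth is unknown. Tbx3, the T-box factor that was targeted, stood at 16.96, 15.3 and 23.0 FPKM in WT dpc16, at 8.96, 6.38 and 8.12 in NP and at 4.81, 1.65 and 4.89 in Tbx3 cKO. The deleted part is not given, so these values can include remaining exons. Basal keratinocyte markers (10 genes) summed to 22400 to 30400 FPKM in Tbx3 cKO, 33500 to 37200 in WT dpc16 and 30900 to 39900 in NP. The 8 suprabasal spinous markers summed to 3310 to 4720 FPKM in Tbx3 cKO, 4990 to 14000 in WT dpc16 and 7850 to 9320 in NP. The 7 fibroblast markers summed to 17.9 to 36.3, 83.6 to 95.6 and 72.6 to 97.7 in the same order. Only 1 of these 7 reached a mean of 1 FPKM, so that sum rests mostly on 1 gene and is no measure of fibroblasts. The sum of 6 smooth muscle markers was 7.07 to 10.5 FPKM in NP, 1.68 to 2.26 in WT dpc16 and 1.61 to 2.88 in Tbx3 cKO. Langerhans markers (8 genes) summed to 60.7 to 75.2 FPKM in NP, 33.9 to 45.3 in WT dpc16 and 34.3 to 98.3 in Tbx3 cKO. The 7 T cell markers in the table summed to 307 to 603, 670 to 855 and 121 to 644 in the same order. Only 2 of them reached a mean of 1 FPKM. The list holds Thy1, which also led single-cell clusters 4 and 6, not named as T cells, so this sum is no measure of T cells. Another gene of the list, Cd3e, stood at 0.999, 3.86 and 0.463 FPKM in NP and at 0.481, 0.187 and 0.138 in WT dpc16. Cd3e lies outside the naming rule and was chosen after its values were seen. Of the markers at low level, those of adipocytes (5 genes) summed to 0.558 to 1.16 FPKM in WT dpc16, 1.72 to 3.20 in Tbx3 cKO and 0.819 to 2.06 in NP. Those of Merkel cells (5 genes) summed to 0.0791 to 0.163, 0.205 to 0.594 and 0.0483 to 37.2 in the same order. The 9 infundibulum markers summed to 739 to 3490 FPKM among the NP libraries. Some of these marker levels move with the groups and others vary widely among the NP libraries, and their part in the results was not tested. In bulk RNA, fewer cells of a type and less RNA per cell cannot be told apart. Nothing in the labels states that each library had its own animal, so the p-values reflect no more than the variation among these libraries, and that may be technical.

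WT dpc16 was compared with WT NP for the effect of pregnancy on these genes in basal cells. Deptor, an inhibitor that binds the mTOR kinase (chromosome 15, 55112317 to 55259271, mm10), stood at 18.3, 15.6 and 20.7 FPKM in WT dpc16 and at 5.31, 3.93 and 4.84 in NP. Every pregnant library lay above every NP library. The means were 18.2 ± 2.56 and 4.69 ± 0.697 FPKM (SD, n = 3 each), a ratio of 3.88. The log2 change of FPKM + 1 was 1.75 (SE 0.22). Deptor was the only one of the 10 members whose WT dpc16 and NP libraries did not overlap. It was picked for its change in pregnancy, so this separation is a description and no result. Of the 11497 genes tested, 6.82% had every WT dpc16 library above every NP library, and the share for the opposite direction is not given.

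The other picked genes did not separate WT dpc16 from NP in the sorted basal cells. Txnip, an arrestin-like protein that limits glucose uptake and inhibits thioredoxin (chromosome 3, 96557957 to 96561883), stood at 518, 743 and 384 FPKM in WT dpc16 and at 494, 448 and 790 in NP. The groups overlapped, with means of 548 ± 181 and 577 ± 185 FPKM (SD, n = 3 each) and a log2 change of -0.08 (95% interval -1.09 to 0.93), which turned to 0.001 under quantile normalization. Pik3ip1, a membrane protein that inhibits PI3K (chromosome 11, 3330401 to 3342971), stood at 41.2, 26.8 and 26.2 FPKM in WT dpc16 and at 45.9, 26.2 and 33.5 in NP. These overlapped as well, with a log2 change of -0.16 (95% interval -0.76 to 0.45).

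None of the 7 members chosen by role passed in pregnancy. In the limma fit (Benjamini-Hochberg) 15 of 11497 genes, or 0.13%, passed an adjusted p of 0.05, and 0 of the 7 members did, with 0 also at an unadjusted p under 0.05. Their log2 changes lay between 0.01 (Sesn1) and 0.16 (Foxo1), with adjusted p between 0.873 and 0.996 (limma with Benjamini-Hochberg). The intervals leave room for changes of different size. For Sesn1 the 95% interval was -0.56 to 0.58, and for Irs2 it was -1.17 to 1.38.

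**Figure D1:**
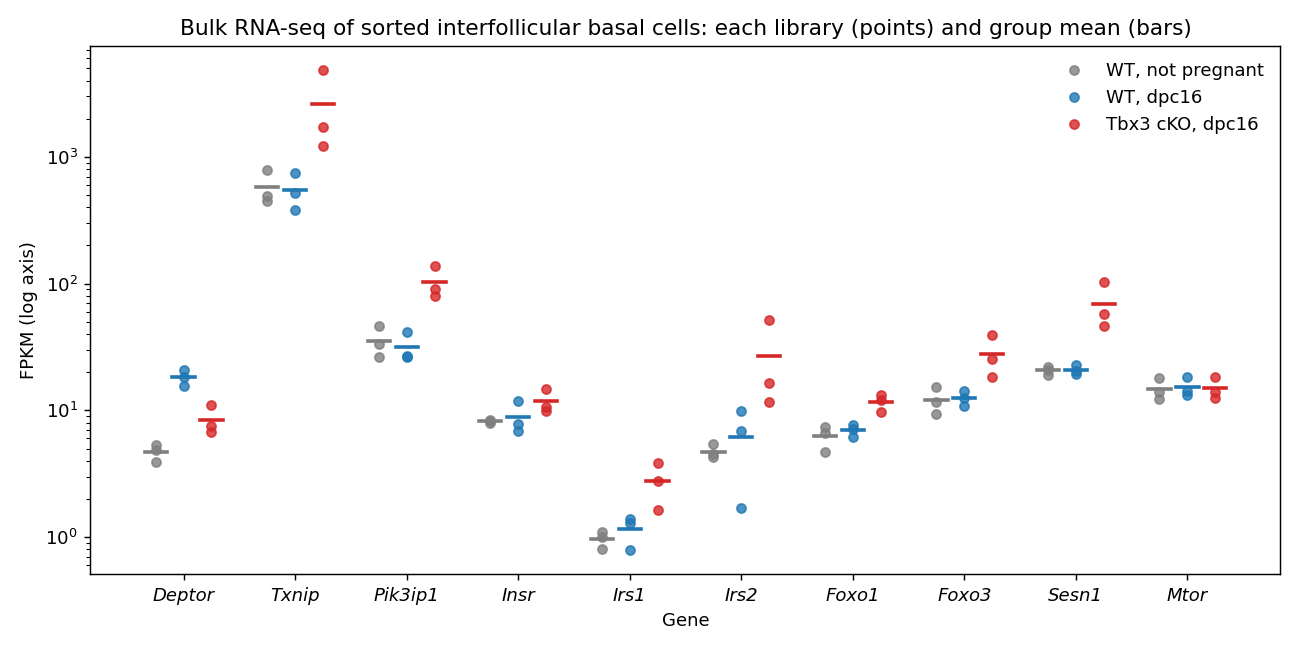
FPKM (log axis) of the 10 genes in each of the 9 bulk libraries (points) with the group means (bars), coloured by group. Deptor is the only gene with all 3 WT dpc16 libraries above all 3 NP libraries, and the 3 Tbx3 cKO libraries lie above the WT dpc16 libraries for Txnip, Pik3ip1, Irs1, Irs2, Foxo1, Foxo3 and Sesn1.

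Tbx3 cKO and WT libraries of the same gestation day were compared for the effect of Tbx3 loss on these genes. It shares the WT dpc16 libraries with the pregnancy comparison. Every Tbx3 cKO library was above every WT dpc16 library for 7 of the 10 members (Txnip, Pik3ip1, Irs1, Irs2, Foxo1, Foxo3 and Sesn1), and 13.3% of all genes tested did the same. Of these, 5 are among the 7 members chosen by role. Only Deptor lay lower in every Tbx3 cKO library, as did 12.9% of genes. Insr and Mtor overlapped.

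Among the inhibitors, Deptor lay lower and Txnip and Pik3ip1 lay higher in Tbx3 cKO. Deptor stood at 7.48, 6.78 and 10.9 FPKM in Tbx3 cKO, below the WT dpc16 libraries and above every NP library. Its mean of 8.41 ± 2.23 FPKM (SD, n = 3) was 2.17-fold lower than in WT dpc16, with a log2 change of -1.05 (SE 0.22). Txnip stood at 4853, 1715 and 1213 FPKM in Tbx3 cKO. The first of these libraries was far above the other 2, and all were above every WT library. The mean ratio of Txnip to WT dpc16 was 4.73, and 2.67 without Tbx3 cKO library 1, and the log2 change was 2.03 (SE 0.46). Pik3ip1 stood at 137, 90.0 and 79.9 FPKM, with a log2 change of 1.67 (SE 0.27) and a mean ratio of 3.27.

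Sestrin 1 was the member that passed the test, among members chosen with earlier results of these data known. Sesn1 (chromosome 10, 41809935 to 41908424) encodes a stress-induced protein that binds GATOR2 and restrains mTORC1. It stood at 103, 57.9 and 46.7 FPKM in Tbx3 cKO, at 19.2, 22.8 and 20.4 in WT dpc16, and at 20.997, 18.9 and 22.0 in NP. The WT groups lay within 18.9 to 22.8 FPKM, and the lowest Tbx3 cKO library was 2.05-fold above the highest WT dpc16 library. Sesn1 rose with a log2 change of 1.61 (SE 0.25, limma with Benjamini-Hochberg, adjusted p = 0.0169), against a background of 2.15% of genes called. It was the only one of the 7 tested members past the threshold, and 5 of the 7 were higher at an unadjusted p under 0.05, as were 9.19% of all genes. That call was lost when any 1 WT dpc16 library was left out (limma, adjusted p of 0.0639, 0.0573 and 0.0646 without libraries 1, 2 and 3), without the filter on low FPKM (0.0511) and with only the 6 libraries compared (0.0554).

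The insulin receptor and its substrates were higher in level to different degrees without passing. Insr, the insulin receptor (chromosome 8, 3122061 to 3279617), stood at 14.7, 9.94 and 10.6 FPKM in Tbx3 cKO and at 7.75, 11.8 and 6.84 in WT dpc16. These overlapped, and the log2 change was 0.40 (SE 0.23, limma with Benjamini-Hochberg, adjusted p = 0.404). Irs1, an adaptor of the receptor (chromosome 1, 82233101 to 82291416), was the lowest of the 10 genes, at 3.82, 2.80 and 1.63 FPKM in Tbx3 cKO against 1.39, 1.29 and 0.788 in WT dpc16. For Irs1 the log2 change was 0.77 (SE 0.29), short of the threshold (limma, Benjamini-Hochberg adjusted p = 0.21). Irs2, the other main adaptor (chromosome 8, 10984681 to 11008458), stood at 51.9, 16.5 and 11.6 FPKM in Tbx3 cKO and at 9.96, 6.84 and 1.70 in WT dpc16. Irs2 varied most, relative to its mean, among the WT dpc16 libraries, and its log2 change was 1.88 (SE 0.57), short of the threshold (limma, Benjamini-Hochberg adjusted p = 0.122). The mean ratio for Irs2 was 4.32, and 2.28 without Tbx3 cKO library 1.

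Both FOXO members lay higher in every Tbx3 cKO library than in every WT dpc16 library and missed the threshold. Foxo1 (chromosome 3, 52268336 to 52353221) stood at 13.2, 9.77 and 12.2 FPKM in Tbx3 cKO and at 7.12, 7.60 and 6.20 in WT dpc16, a log2 change of 0.67 (SE 0.21, limma with Benjamini-Hochberg, adjusted p = 0.128). Foxo3 (chromosome 10, 42181841 to 42276755) stood at 39.5, 25.5 and 18.2 FPKM in Tbx3 cKO and at 12.5, 14.2 and 10.9 in WT dpc16. The change of Foxo3 was 1.03 on the log2 scale (SE 0.27), short of the threshold (limma, Benjamini-Hochberg adjusted p = 0.0846), and it passed without Tbx3 cKO library 3 (adjusted p = 0.033). Of the other FOXO factors, Foxo4 overlapped between the groups (log2 change 0.22, limma adjusted p = 0.526), as did Foxo6 (-0.48, adjusted p = 0.398). Both lie outside the naming rule and were chosen after their values were seen. Mtor, the kinase at the end of the pathway (chromosome 4, 148448611 to 148557683), stood at 18.2, 12.5 and 13.98 FPKM in Tbx3 cKO and at 13.2, 18.3 and 14.2 in WT dpc16. Its log2 change was -0.03, with a 95% interval of -0.50 to 0.43.

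**Figure D2:**
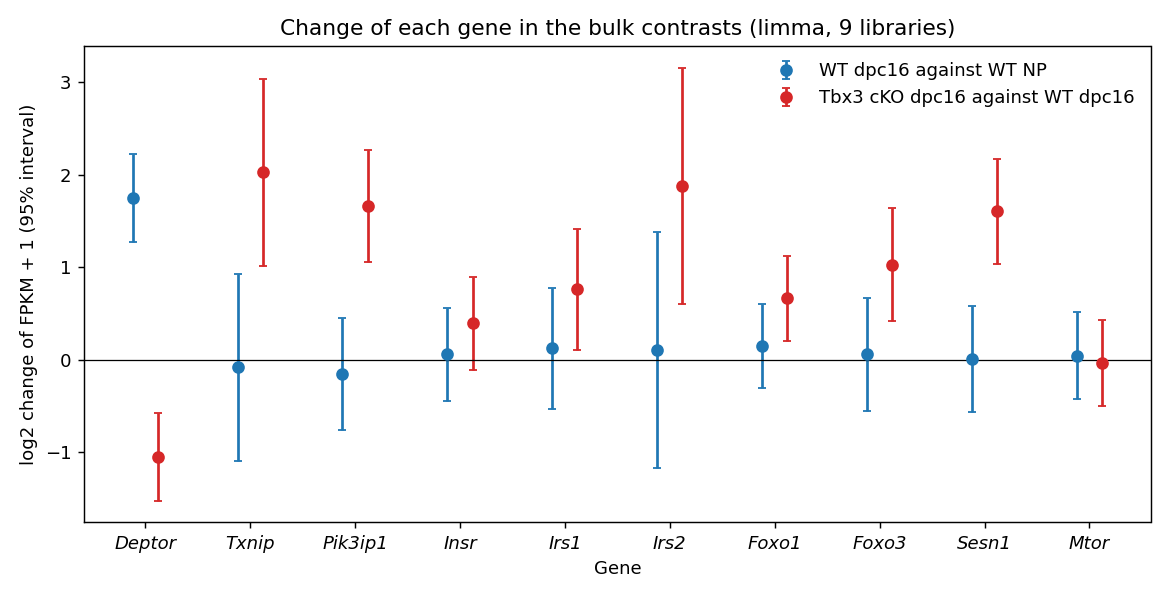
The log2 change of FPKM + 1 for the 10 genes in WT dpc16 against WT NP (blue) and in Tbx3 cKO against WT at dpc16 (red), with 95% intervals from the limma fit over 9 libraries. Deptor stands at 1.75 in the first and at -1.05 in the second, while Txnip stands at -0.08 and 2.03. Both comparisons use the WT dpc16 libraries.

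Tbx3 cKO library 1 was the highest of the 3 Tbx3 cKO libraries for 9 of the 10 members, all but Deptor. The share of all genes for which that library was highest was not computed, so this count is no result about the members. Krt1, a keratin of differentiating cells, fell in Tbx3 cKO with a log2 change of -2.51 (limma with Benjamini-Hochberg, adjusted p = 0.00943), so the members' values stand beside a lower level of a differentiation marker. Krt1 lies outside the naming rule and was chosen after its values were seen. An antisense gene, Gm15441, overlaps Txnip, and transcripts on the opposite strand also overlap Deptor, Pik3ip1, Insr, Irs1, Irs2, Foxo1 and Mtor. On the same strand 9930024M15Rik overlaps Sesn1, Gm38034 overlaps Foxo1, and 2 small nuclear RNA genes overlap Mtor. The strand setting of the counting is not given, so reads of these genes and of their overlapping partners cannot be told apart.

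Across the 9 bulk libraries Txnip and Foxo3 had a Pearson r of 0.987 between their log2 values, and each was the other's nearest gene among 9233. Sesn1 was nearest to Flcn (r = 0.987), Cdip1 (0.986) and Tango2 (0.984). Irs1 was nearest to Ppfibp2 (0.989), Mlxip (0.985), a glucose-sensing transcription factor, and Crebrf (0.981). Irs2 was nearest to Clic4 (0.987), Maff and Ppp1r14a (both 0.984), and Pik3ip1 to Adipor1 (0.976), Chmp4c (0.969) and Rnf167 (0.967). Deptor went with Vwa8 (0.970), Drc1 (0.968) and Prlr, the prolactin receptor (0.954), a different set from the others. Foxo1 was nearest to Il22ra2 (0.980), Lmbrd1 (0.963) and Igbp1 (0.963), Insr to Ufd1 (0.944), Supt20 (0.932) and Setd5 (0.930), and Txnip after Foxo3 to Cdip1 (0.977) and Sash1 (0.976). Foxo3 after Txnip was nearest to Calcoco1 and Smpd2 (both 0.986). Mtor had no gene above 0.866, its nearest being Tex264 (0.866), Ncs1 (0.865) and Ttc39c (0.864). These values are a description over 9 libraries that share 3 groups.

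The wider pathway was described with 8 lists of other genes, 103 of whose members were measured. These lists too were chosen with earlier results of these data known. In Tbx3 cKO against WT dpc16, 3 of the 103 rose and 0 fell by limma at an adjusted p under 0.05, a share near the 2.15% of all genes called. At an unadjusted p under 0.05, 26 were higher and 5 lower, where 9.19% and 8.24% of all genes were. In pregnancy 0 of the 103 passed, and 4 were higher and 6 lower at an unadjusted p under 0.05 by limma, where 9.05% of all genes reached that p in either direction. The FOXO list had 15 of 19 measured genes above 0 with a median log2 change of 0.34, and the mTOR substrates and outputs 7 of 10 with a median of 0.43. The median over all genes was 0.01, with 50.8% above 0. The list of PI3K and AKT brakes had a median of 0.29 with 7 of 10 above 0, and the remaining 5 lists had medians between -0.09 and 0.04.

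Sgk1, a kinase downstream of PI3K and mTORC2, stood at 274, 142 and 150 FPKM in Tbx3 cKO and at 75.7, 57.2 and 42.6 in WT dpc16. Sgk1 rose with a log2 change of 1.65 (SE 0.32, limma with Benjamini-Hochberg, adjusted p = 0.0328). Flcn, folliculin, which acts on the RagC GTPase at the lysosome, rose from 16.8 ± 0.742 to 32.98 ± 8.61 FPKM (SD, n = 3 each), with an adjusted p of 0.0425 by limma. Bcl2l11, the pro-apoptotic BIM and a FOXO target, rose from 1.75 ± 0.337 to 6.25 ± 2.85 FPKM (SD, n = 3 each), with an adjusted p of 0.0476 by limma. Each of these calls was lost under alternatives: Flcn in 11 of 17, Sgk1 in 9 of 17 and Bcl2l11 in 12 of 16. In each remaining list the gene with the smallest p lay above WT dpc16 in every Tbx3 cKO library and missed the threshold (limma, Benjamini-Hochberg adjusted p between 0.0579 and 0.0969). These were the receptor Igf1r (log2 change 0.85), the PI3K regulatory subunit Pik3r1 (0.91), the phosphatase Inpp5k (0.79), the mTORC1 inhibitor Ddit4l (1.80) and Arrdc3 (0.98).

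**Figure D3:**
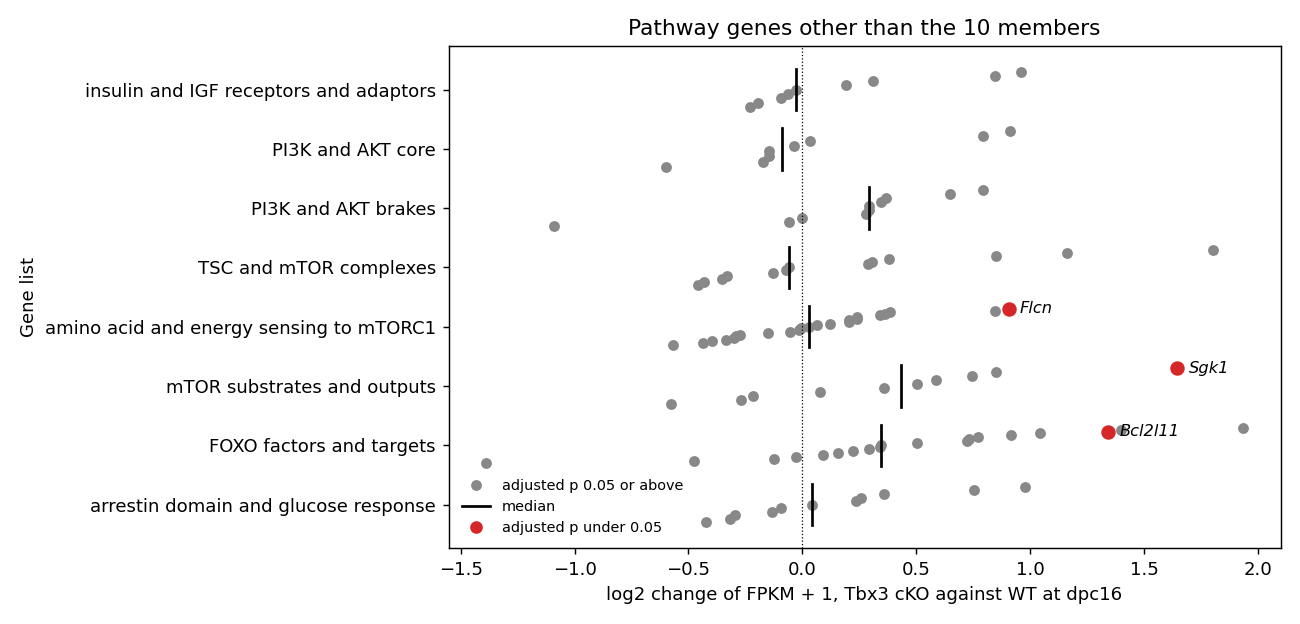
The log2 change of FPKM + 1 in Tbx3 cKO against WT at dpc16 (horizontal axis) for each measured gene of the 8 pathway lists (points), with the median of each list (black line) and genes past an adjusted p of 0.05 in red and named. The medians of the FOXO list (0.34) and of the mTOR outputs (0.43) lie to the right of 0.

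In the single-cell libraries each state is 1 library, so there is no test, and intervals cover counting error only. After filters, 6491 (NP), 12853 (dpc16), 9031 (dpp6) and 8552 (dpp40) cells remained, with median UMIs (unique molecules) of 4709, 4448, 5014 and 5638 per cell. A pair of libraries shared between 75 and 154 cell barcodes. At dpc16 Txnip, Pik3ip1 and Sesn1 stood lower than in NP, and Deptor stood higher. Deptor, Txnip and Pik3ip1 were picked for such a change, so only the 7 members chosen by role were counted. Of these 1 (Sesn1) was at least 1.5-fold lower, where 8.58% of 10145 genes were, and 0 were at least 1.5-fold higher, where 2.0% of genes were.

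Levels are given as CPM, the UMIs of a gene per 1000000 UMIs of the cells. Deptor stood at 14.9 CPM in NP, 41.9 at dpc16, 14.9 at dpp6 and 12.4 at dpp40. It was high in the pregnant library only, 2.82-fold above NP (95% interval 2.58 to 3.08). Txnip stood at 370.5 CPM in NP, 137.8 at dpc16, 227.5 at dpp6 and 322.0 at dpp40. It was lowest at dpc16, 2.69-fold below NP (interval 2.62 to 2.76), and lay 1.63-fold below NP at dpp6 and 1.15-fold at dpp40. Pik3ip1 stood at 47.4, 19.3, 44.4 and 40.5 CPM in the same order, 2.45-fold lower at dpc16 than in NP (interval 2.29 to 2.63). Sesn1, which was not picked for pregnancy, stood at 34.2, 19.0, 33.6 and 26.5, 1.80-fold lower at dpc16 (interval 1.67 to 1.94). For Sesn1 and Pik3ip1 the level at dpp6 was close to NP, with ratios of 0.984 (interval 0.917 to 1.06) and 0.936 (0.881 to 0.994). At dpp40 both lay below NP, with ratios of 0.775 (interval 0.721 to 0.834) and 0.854 (0.804 to 0.907).

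In the bulk libraries the log2 changes between WT dpc16 and NP were -0.08 for Txnip, -0.16 for Pik3ip1 and 0.01 for Sesn1, so the lower level at dpc16 was seen in the single-cell libraries and not in the sorted basal cells, while Deptor stood higher at dpc16 in both. Txnip, Pik3ip1 and Sesn1 were lower at dpc16 in all 18 single-cell clusters compared below. None of these was named as basal keratinocytes, but only 14 of the 27 clusters got a name. The naming rule ranks genes by their level against all other cells, so markers shared by many clusters seldom lead. An absent name therefore does not show that basal cells were absent from the 18. The 2 kinds of library differ in genotype, cells and assay, and their difference was not tested.

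The remaining 6 members differed less between the libraries. Insr stood at 12.8, 8.87, 10.7 and 9.76 CPM in NP, dpc16, dpp6 and dpp40, and Irs1 at 6.09, 4.15, 4.76 and 5.34. Irs2 stood at 10.1, 8.12, 12.6 and 11.8, above NP at dpp6 with a ratio of 1.25 (interval 1.10 to 1.41). Foxo1 stood at 33.7, 29.7, 32.2 and 34.8 CPM, Foxo3 at 20.9, 18.2, 20.8 and 18.2, and Mtor at 12.5, 10.9, 10.7 and 11.6. The dpc16 to NP ratios of these 6 lay between 0.681 (Irs1) and 0.883 (Foxo1), where the median over all genes was 0.945.

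**Figure D4:**
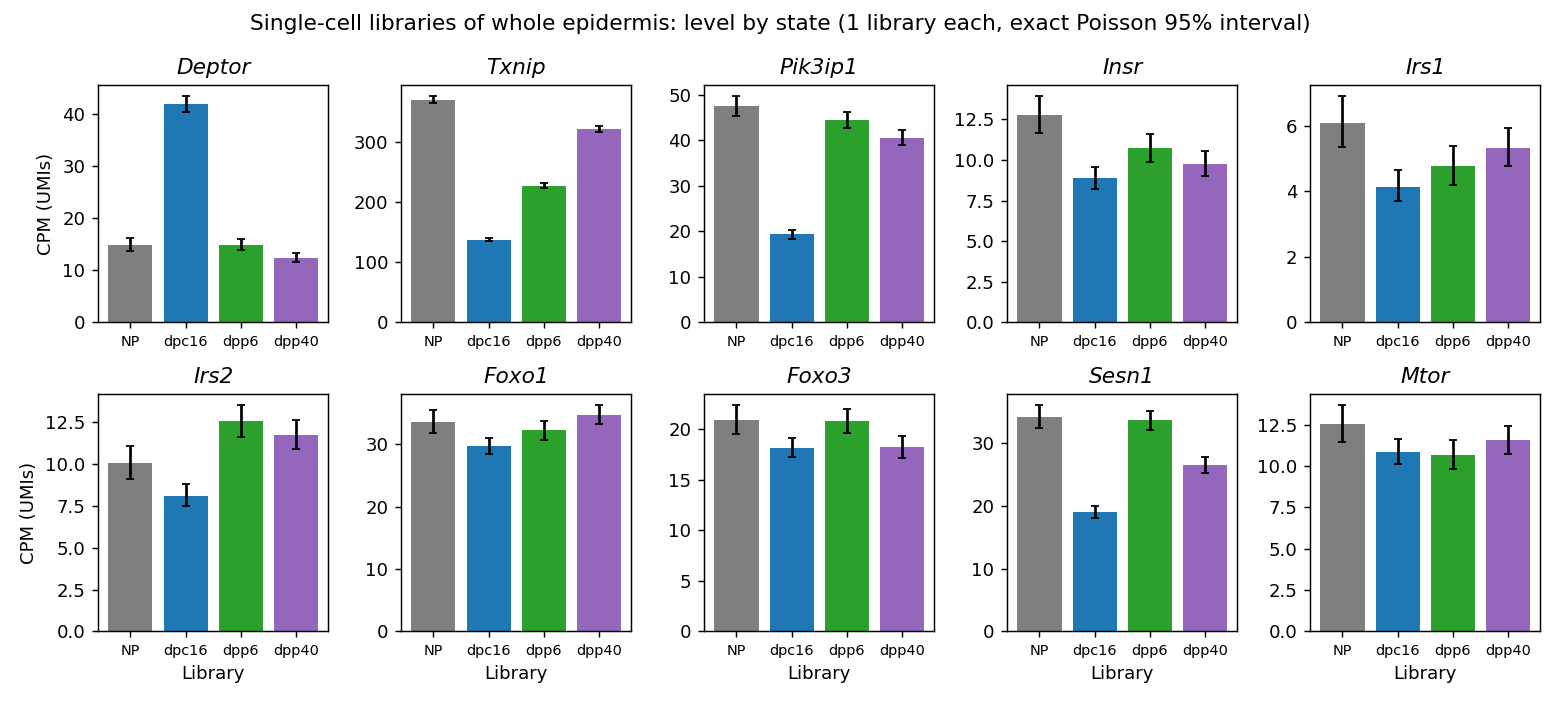
CPM of the 10 genes in the 4 single-cell libraries (bars, from 0, 1 library per state) with exact Poisson 95% intervals for counting error. Deptor is highest and Txnip, Pik3ip1 and Sesn1 are lowest at dpc16.

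The share of cells with a UMI was read after every cell was thinned to 2000 UMIs. The order of the states for Txnip was that of its levels. Txnip was seen in 49.1% of NP cells (unthinned 75.9%), 24.0% at dpc16 (46.3%), 36.1% at dpp6 (62.9%) and 45.0% at dpp40 (76.5%). Deptor was seen in 2.79% of NP cells (7.87% unthinned) and in 7.97% at dpc16 (19.7% unthinned). In granular-like cells, a late differentiated cluster with a median of 13893 UMIs per cell, the thinned shares were 12.6% for Txnip and 0.894% for Deptor. RNA set free from other cells gives UMIs in droplets, and its part in these shares was not tested.

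The change was then read within clusters. Clustering without the members and the pathway lists gave 27 clusters, of which 18 held at least 50 cells of every library. The clusters split the same NP and dpc16 libraries, so they are not replicates. Deptor, Txnip and Pik3ip1 were picked for such a change. The share of all genes that changed in 1 direction in every cluster was not computed, so the counts are a description only. Txnip was lower at dpc16 than in NP in all 18, with ratios of 0.193 (cluster 9, suprabasal spinous-like) to 0.647 (cluster 16, unnamed, led by Akr1c18 and Mgst1), and the counting interval lay below 1 in all 18. Deptor was higher in all 18, with ratios of 1.38 (cluster 16) to 6.87 (cluster 7, infundibulum-like), and its interval lay above 1 in 17. With a coarser clustering (resolution 0.5) Deptor was higher in 12 of 13 clusters and stood at 0.973 in the other, with its interval above 1 in 11, while Txnip, Pik3ip1 and Sesn1 were lower in all 13. Pik3ip1 was lower in all 18 (0.266 to 0.719, interval below 1 in 15) and Sesn1 in all 18 (0.407 to 0.990, interval below 1 in 10). In the Langerhans-like cluster 20 Txnip stood at 422.5 CPM in NP and 213.0 at dpc16, and Deptor at 21.8 and 48.8. Free RNA from keratinocytes can give UMIs in such cells, and its part was not tested.

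Foxo3 had no common direction, being lower at dpc16 in 6 and higher in 12 of the 18 clusters. Irs2 ranged from 0.232 to 2.98, Mtor was lower in 11 and higher in 7, Irs1 lower in 14, Insr in 15 and Foxo1 in 13. Clusters 4 and 6, led by Tgm3 and Thy1, came to more than 80% from the dpc16 library and were not among the 18. Without them the whole-library ratio of Txnip was 0.358.

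**Figure D5:**
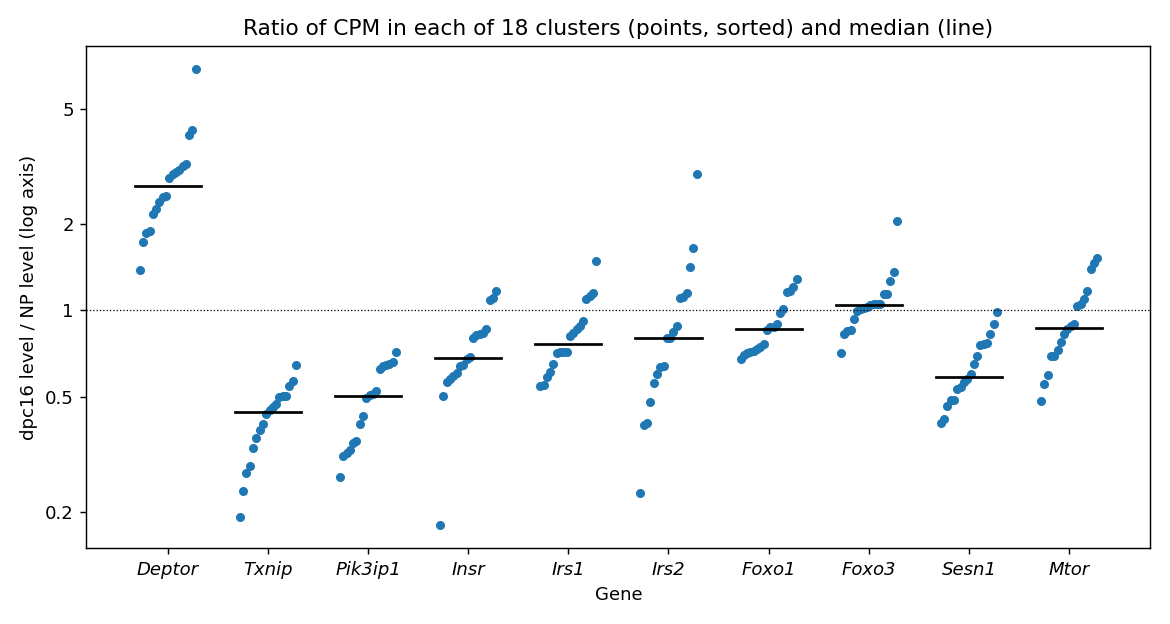
Ratio of the CPM at dpc16 to NP (log axis) in each of 18 clusters (points, sorted within each gene) with the median (line). At the resolution shown, all 18 points lie below 1 for Txnip, Pik3ip1 and Sesn1 and above 1 for Deptor, and the points of Foxo3 lie on both sides.

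Levels also differed between the 25 clusters with at least 50 cells in all. Txnip was highest in cluster 18 (541.3 CPM, led by Fam13a and Cldn10), next in cluster 14 (400.4), and lowest in granular-like cluster 19 (76.2). Deptor was highest in cluster 16 (54.8, interval 48.6 to 61.5) and sebaceous-like cluster 23 (50.4, interval 40.9 to 61.5), which do not differ beyond counting error, and lowest in granular-like cluster 19 (4.33). Pik3ip1 was highest in bulge-like cluster 1 (81.8) and cluster 3 (76.4), whose intervals meet, and lowest in sebaceous-like cluster 23 (7.28). Irs2 was highest in cluster 5 (35.6, interval 32.4 to 39.0, led by Fosl1 and Krt16), above cluster 8 (24.2, interval 21.2 to 27.4). Irs1 was highest in sebaceous-like cluster 23 (19.8), Sesn1 in cluster 10 (48.9, led by Aspn and Pthlh) and Foxo1 in cluster 16 (49.6), and for each of these 3 genes the interval overlapped that of the next cluster. The highest to lowest ratio was 13.2 for Irs1, 12.7 for Deptor, 11.2 for Pik3ip1 and 10.2 for Irs2, against 2.09 for Mtor and 2.43 for Foxo1. Cluster levels pool the 4 libraries, whose levels and shares of each cluster differ, so the order can differ within a library. In NP alone Pik3ip1 stood at 89.7 CPM in cluster 3, 81.5 in cluster 2, 76.2 in cluster 13 and 75.9 in cluster 1, and cluster 18, where Txnip was highest, held only 15 dpc16 cells.

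Outside the members, 8 of 93 measured genes of the lists lay at least 1.5-fold lower at dpc16 than in NP, a share near the 8.58% of all genes, and 0 lay that much higher, where 2.0% of all genes did. The count is therefore no result about the lists, and the genes are given for their levels. Ddit4, a stress-induced inhibitor of mTORC1, stood at 70.8 CPM in NP and 35.9 at dpc16, a ratio of 0.507 (interval 0.481 to 0.535). Among the FOXO targets Cited2 stood at 92.5 and 48.9, Cdkn1b at 20.4 and 10.7 and Gabarapl1 at 33.1 and 19.8. Arrdc3, an arrestin domain protein related to Txnip, stood at 84.3 and 52.7 (ratio 0.625, interval 0.597 to 0.655). The remaining 3 were Enpp1, Trib3 and Tti1. The 8 were chosen by their size after their values were seen. The median ratio of the FOXO list was 0.749 and that of all genes 0.945.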

How the data were processed

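The authors deposited bulk values as FPKM for 9 libraries in 1 table, and single-cell counts (UMIs) for 4 libraries. Per the submitters' processing notes cutadapt 1.14, TopHat2 2.2.1, Cufflinks 2.2.1, Cuffdiff, Cell Ranger 2.2.0 and the build mm10 were used, with no role or order given. Kit and sorting are per the labels' protocols. The columns headed WT were taken as WT dpc16 because the other headings name NP and Tbx3 cKO, and the library numbers here are the columns' own numbers.

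Bulk FPKM was taken as log2(FPKM + 1), which understates changes of low genes. The 11497 of 21950 genes whose mean reached 1 FPKM were fitted with limma 3.58.1 in R 4.3.3: group means over all 9 libraries, empirical Bayes with trend, two-sided tests, Benjamini-Hochberg adjustment, threshold 0.05. The fit was tested on simulated data. Low FPKM are multiples of the worth of 1 fragment, and that worth lay between 0.763 and 1.69 times that of WT dpc16 library 1.

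Barcodes under 200 genes or above 10% mitochondrial UMIs were dropped. Scrublet called 0 doublets in every library at an expected rate of 6%, and none were removed. Its scores were not examined, so 0 calls do not show that the libraries were free of doublets. Counts were clustered with scanpy 1.11.5 and leidenalg 0.10.2 (2000 variable genes without members and lists, 30 components, 15 neighbours, resolution 1). A cluster was named only with more than 1 of a type's markers among its 10 leading genes, more than of any other type. At least 3 of that type's markers also had to be among its 60 leading genes. Leading genes are those with the highest fold over all other cells. Every cell held over 2000 UMIs, so thinning left out 0 cells. Levels are CPM, the UMIs of a gene per 1000000 UMIs, with exact intervals at 95%, and genes at 3 CPM or more entered the background.

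Positions are from GENCODE M21. The members and lists were chosen with earlier results of these data known. The genes named are all members, list members past the threshold or else the 1 with the smallest p, and the 3 genes of highest r with a mean of at least 5 FPKM; genes named outside this rule are said to be so. Alternatives changed the pseudocount, filter, scaling, libraries, trend, block, cell filter and cluster resolution.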

Additional observations from a re-analysis of the deposited data

How the results depend on the processing

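The number of genes called between WT dpc16 and NP was 15, with 9 without a filter on low FPKM and 5 to 15 when 1 library was left out. Between Tbx3 cKO and WT dpc16 it was 247, with 87 without a filter, 118 with only the 6 libraries compared, 160 without the trend, and 41 to 406 when 1 library was left out. With 1 library left out, the log2 change in pregnancy turned direction for 6 of the 7 members chosen by role. The ranges were -0.149 to 0.205 for Insr, -0.311 to 0.70 for Irs2, -0.007 to 0.267 for Foxo1, -0.096 to 0.225 for Foxo3, -0.053 to 0.063 for Sesn1 and -0.083 to 0.189 for Mtor. Txnip, which has no test, ranged from -0.325 to 0.168 and Pik3ip1 from -0.363 to 0.049. In Tbx3 cKO against WT dpc16 Mtor ranged from -0.179 to 0.099. The cause was not tested, beyond the fewer libraries used. Scaling by quantiles turned the log2 change of Txnip in pregnancy from -0.08 to 0.001, scaling by quantiles or by median ratio turned no other member's direction in either comparison, and both moved the median over all genes by less than 0.1 on the log2 scale.

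The columns carry numbers that are not known to pair the samples. Same-numbered WT dpc16 and Tbx3 cKO libraries correlated at 0.31, 0.07 and 0.36 in their deviations from the group means, and WT dpc16 and NP at -0.07, -0.07 and -0.21. Values for differently numbered libraries are not given, so these do not settle whether WT dpc16 and Tbx3 cKO libraries were paired. With a replicate block by column number the counts of calls were 10 in pregnancy and 202 in Tbx3 cKO.

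In single cells the dpc16 to NP ratio of Deptor was 3.11 with the stricter cell filter. As a mean of clusters with equal weight, an alternative chosen after seeing the data, the ratios were 2.43 for Deptor, 0.423 for Txnip, 0.5 for Pik3ip1, 0.861 for Irs1, 0.928 for Irs2 and 0.644 for Sesn1, and Foxo3 turned to 1.03. Without the clusters held over 80% by 1 library, also chosen after seeing the data, Txnip stood at 0.358. Depth limits Irs1, Irs2, Insr and Mtor, which held 242 to 508 UMIs in NP.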
